A study of Mus musculus with 12 samples.

Results

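The genes described here are the 5 subunits of the transcription factor NF-κB (Nfkb1, Nfkb2, Rel, Rela and Relb) and 5 genes grouped as its inhibitors (Nfkbia, Nfkbib, Nfkbie, Nfkbiz and Tnfaip3). Of the latter, Nfkbiz is also needed for some NF-κB targets. The 10 genes were picked by gene symbol from a mouse count table with 31301 named gene rows. All 10 symbols were found, and all 10 were among the 10861 genes with enough counts to be tested. Their RNA was measured in basophils that were cultured for 7 days from the marrow of C57BL/6J mice (wild type), either with the cytokine IL-3 at 0.3 ng/mL or with the cytokine TSLP. The treatment protocol gives the TSLP dose as 1 µg/mL, while another label writes the same number with a different unit. From each culture condition, cells were sorted by flow cytometry into an immature population (FcεRIαhi CD49blo, the pre-basophils of the study) and a mature population (FcεRIαlo CD49bhi). FcεRIα is the chain of the high-affinity IgE receptor that binds IgE, and CD49b is an integrin chain. This made 4 groups of 3 cultures each, sequenced in bulk as 12 libraries, and where 4 values are given together they stand in this order: the immature and then the mature cells of the IL-3 cultures, then the immature and the mature cells of the TSLP cultures. The labels name no stimulus other than the culture cytokine, so the values describe cells as they came out of culture and sort. The sort tells the stages apart by surface staining alone, and all groups are wild-type cells grown in vitro. The study's question was whether basophils elicited by TSLP resemble mature or immature IL-3 basophils in their transcripts.

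The 12 libraries held 1720065 to 3685285 counts. Levels are given as CPM, a count taken relative to its library's total after TMM scaling, and 3 counts corresponded to 0.809 to 1.46 CPM. The count of a gene is a share of the library, so fewer cells of a type and less RNA per cell cannot be told apart. Basophil markers were high in every library: Mcpt8, a basophil protease, lay between 2166 and 16420 CPM, whereas Kit, which marks mast cells, did not pass 1.46 CPM in any library, and the 7 mast cell genes in the table summed to at most 8.91 CPM. The study gates cultured basophils as CD200R3+ c-Kit- before it splits them by FcεRIα and CD49b. Low Kit is therefore no independent measure of purity. The library TSLP mature 1 stood apart from the other TSLP mature libraries. Its B lineage markers summed to 196 CPM against 22.7 and 24.0, its neutrophil markers to 760 CPM against 37.2 and 50.2, and its monocyte, macrophage and dendritic cell markers to 1537 CPM against 653 and 716. Itga2, which encodes CD49b, stood at 96.9 CPM in TSLP mature 1, although the sort required high CD49b. This was near the 81.5 to 89.1 CPM of the TSLP immature libraries and below the 199 and 209 CPM of the other TSLP mature ones. Fcer1a, which encodes FcεRIα, was at 1779 CPM, above the 1222 to 1530 CPM of the TSLP immature libraries. Prss34, Clec12a and Cd9 lay on the side of the mature cells, at 1499, 12.1 and 1356 CPM. In the TSLP immature libraries they were at 14190 to 16520, 113 to 145 and 457 to 638 CPM. Calls that end without this library, and values that it moves most, are therefore also given without it.

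NF-κB is a family of dimers that wait in the cytoplasm bound to IκB proteins. Signals from cytokine receptors, Toll-like receptors or the IgE receptor activate the IKK kinases, which mark IκB for destruction, and the freed dimers enter the nucleus and switch on genes of inflammation and survival. Some of the genes they switch on encode NF-κB subunits and inhibitors, so the transcripts of this small family form a feedback circuit. In basophils and mast cells the pathway is known for its part in cytokine production.

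The RefSeq promoter table (GRCm38.p6) matched 7 of the 10 genes: Nfkb2, Rel, Rela, Nfkbia, Nfkbib, Nfkbie and Tnfaip3. The 250 bases upstream of each annotated start were searched on both strands for the kappaB consensus, the sequence that NF-κB dimers bind. It was present for 5 of these 7 genes (Nfkb2, Rel, Nfkbia, Nfkbie and Tnfaip3). It was held by 7.25% of all 32851 windows, as did 10.3% of the 8256 tested genes with a window. Several matches in Nfkb2, Rel and Tnfaip3 share letters, because the consensus read on one strand overlaps its reading on the other. The following sequences, 5′ to 3′ and with the matching letters in capitals, are the upstream windows of Nfkbie, which changed in all 4 comparisons of stage and cytokine, of Nfkb2, which changed in 3 of them, of Nfkbia, which alone was lower with TSLP, and of Rela, which changed in 3 but has no match in this window. Nfkb2 has 3 annotated starts in the table and each window holds a match; the first is printed.

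Nfkbie, chr17:45555450-45555699, plus strand: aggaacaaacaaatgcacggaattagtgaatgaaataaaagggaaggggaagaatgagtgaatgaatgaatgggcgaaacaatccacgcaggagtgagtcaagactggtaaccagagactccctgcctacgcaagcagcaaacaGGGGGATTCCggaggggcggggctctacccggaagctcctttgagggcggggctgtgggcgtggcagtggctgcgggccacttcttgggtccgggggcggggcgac

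Nfkb2, chr19:46304487-46304736, plus strand: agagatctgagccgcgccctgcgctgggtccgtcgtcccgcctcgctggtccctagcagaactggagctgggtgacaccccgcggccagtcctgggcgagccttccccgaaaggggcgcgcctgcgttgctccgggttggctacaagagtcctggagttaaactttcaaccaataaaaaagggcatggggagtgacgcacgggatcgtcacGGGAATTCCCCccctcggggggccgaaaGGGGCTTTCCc

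Nfkbia, chr12:55492648-55492897, minus strand: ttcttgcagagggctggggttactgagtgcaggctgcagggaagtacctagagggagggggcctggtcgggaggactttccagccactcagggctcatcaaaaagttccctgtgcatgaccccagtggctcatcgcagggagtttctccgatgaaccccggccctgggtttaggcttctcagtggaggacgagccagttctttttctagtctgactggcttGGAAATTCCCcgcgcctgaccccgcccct

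Rela, chr19:5637291-5637540, plus strand: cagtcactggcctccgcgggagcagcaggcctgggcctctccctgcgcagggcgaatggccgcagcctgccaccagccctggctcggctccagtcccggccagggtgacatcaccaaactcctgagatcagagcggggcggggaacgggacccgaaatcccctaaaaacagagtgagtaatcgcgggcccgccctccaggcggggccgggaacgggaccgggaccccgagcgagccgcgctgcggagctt

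A match is a stretch of letters only, and no binding was measured.

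In cells grown with IL-3, 7 of the 10 genes were higher in mature than in immature basophils and none was lower (edgeR quasi-likelihood test, adjusted p under 0.05). Of all 10861 genes 46.2% were called in this comparison, 24.1% in the direction of mature cells. In cells grown with TSLP, 3 of the 10 (Nfkb2, Rela and Nfkbie) were higher in mature cells and none was lower, while 25.1% of all genes were called and 12.9% were higher in mature cells. Between mature cells, TSLP went with higher Nfkb1, Rela, Nfkbib and Nfkbie and with lower Nfkbia. In that comparison 24.3% of all genes were called, 12.4% higher and 11.9% lower with TSLP; of the calls 51.1% were higher, and 40.6% with the ribosomal genes Rn45s, Rn18s and Rn28s1 left out of the scaling. Between immature cells, TSLP went with higher Nfkb2, Nfkbie, Nfkbiz and Tnfaip3, 4 of the 10, where 13.3% of all genes were called and 7.38% were higher with TSLP. The comparisons share groups (each group enters 2 of these 4), so they are not independent of each other. Nfkbie was the only one of the 10 called in all 4, and Rel the only one called in none. Without TSLP mature 1 the counts were 7, 3, 5 and 5: Nfkbiz replaced Nfkb2 between the TSLP stages and Nfkbib between mature cells, and Rela was added between immature cells. In that last comparison the removal also raised the calls over all genes, from 1443 to 2243. The median difference of the 10 genes was 0.92, 0.48, 0.655 and 0.71 log2 units in the 4 comparisons, beside 0.065, 0.032, 0.089 and 0.04 over all genes tested.

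**Figure D1:**
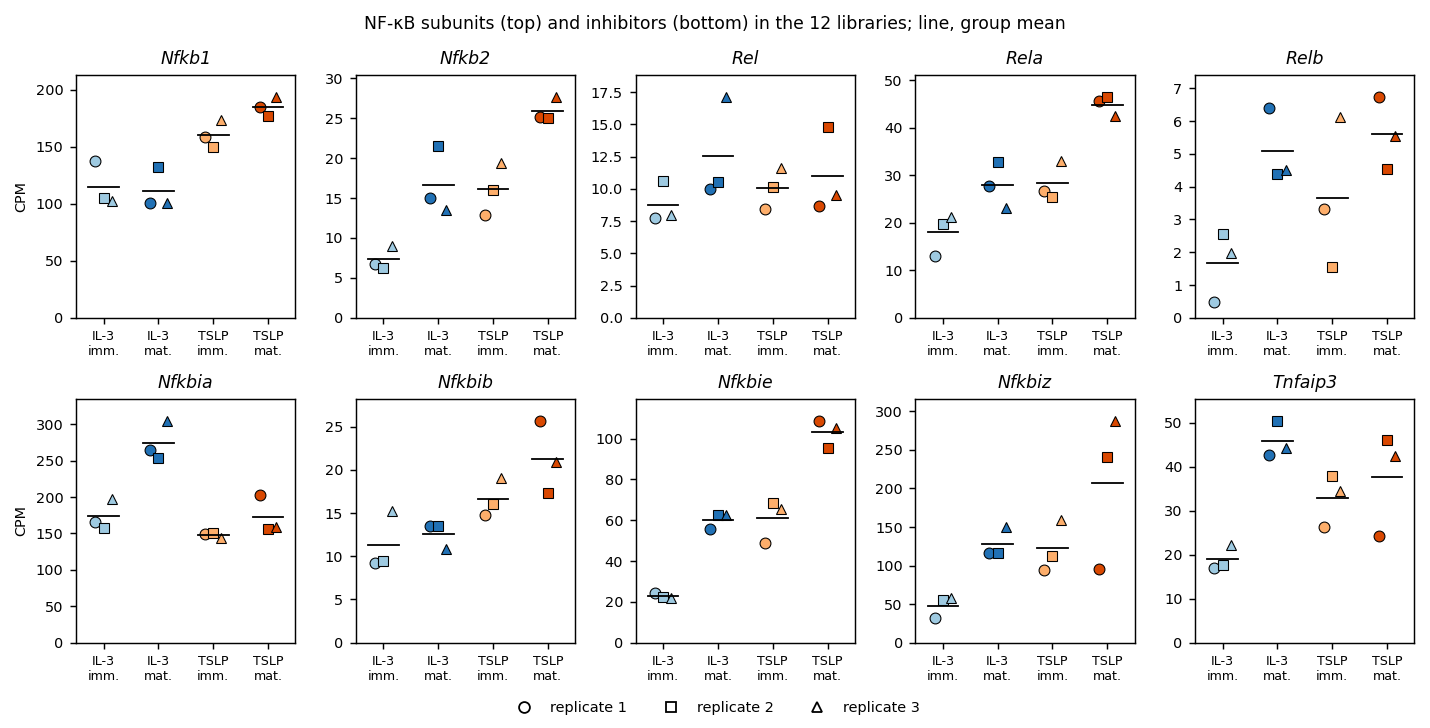
CPM (vertical axis, from 0) of each of the 10 genes in the 12 libraries, grouped by cytokine and stage (imm., immature; mat., mature), with symbols for replicate numbers and a line at each group mean. Nfkbie, Nfkb2 and Nfkbiz are lowest in IL-3 immature cells, Nfkbia is highest in IL-3 mature cells, and TSLP mature 1 (circle) lies low for Nfkbiz and Tnfaip3.

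**Figure D2:**
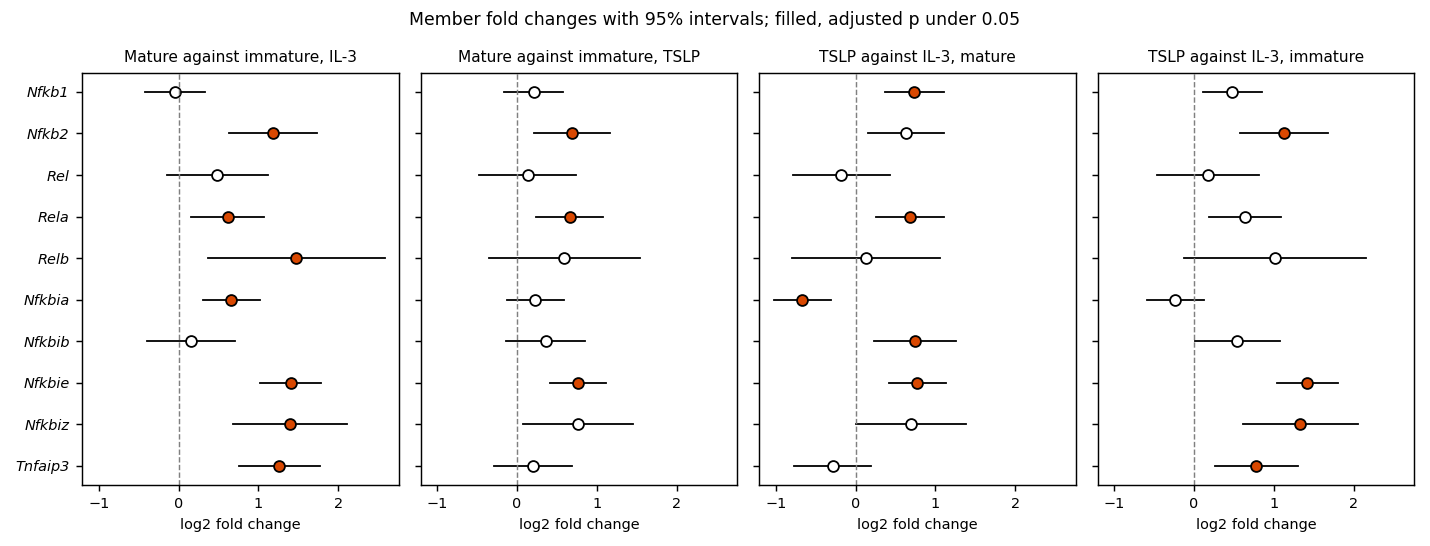
Log2 fold change of each gene (horizontal axis) with its 95% interval in 4 comparisons, filled where the adjusted p is under 0.05. Of the filled points only Nfkbia, with TSLP in mature cells, lies below 0.

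Rela (chr19:5637483-5648130, GRCm38, plus strand) encodes p65, the subunit with the activation domain of the classical dimer. With IL-3 it stood at 13.1, 19.7 and 21.2 CPM in immature and at 27.8, 32.8 and 23.0 CPM in mature libraries. With TSLP it stood at 26.8, 25.4 and 33.0 CPM in immature and at 45.6, 46.5 and 42.5 CPM in mature libraries. The 3 TSLP mature libraries were the highest of all 12 and the 3 IL-3 immature ones the lowest, while TSLP immature and IL-3 mature libraries overlapped. Rela was higher in mature cells by 0.61 ± 0.21 (SE) on the log2 scale with IL-3 (adjusted p = 0.0276) and by 0.66 ± 0.20 with TSLP (adjusted p = 0.0227). With TSLP it was higher by 0.68 ± 0.20 in mature cells (adjusted p = 0.0223); in immature cells the difference was 0.64 ± 0.21, at an adjusted p of 0.0581. The IL-3 call is fragile: it was lost in 8 of 21 alternatives, among them a filter of 10 CPM (adjusted p = 0.0591) and DESeq2 (adjusted p = 0.0581), with adjusted p up to 0.162 (without IL-3 mature 2). The TSLP stage call was lost in 5 alternatives, up to an adjusted p of 0.136 without TSLP immature 2, and the call between mature cells in 3, up to 0.129 without IL-3 mature 3. Without TSLP mature 1 both held (0.55 and 0.59, adjusted p of 0.0452 and 0.0421), and the difference between immature cells had an adjusted p of 0.0453.

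Nfkb1 (chr3:135584655-135691547, minus strand) encodes p105, the precursor of the p50 subunit that pairs with p65. Its levels with IL-3 were 138, 105 and 102 CPM in immature and 100.4, 132 and 101 CPM in mature libraries. With TSLP they were 158, 149 and 173 CPM in immature and 184.5, 176.5 and 194 CPM in mature libraries. Every TSLP library was above every IL-3 library, and the 2 stages overlapped only with IL-3. Nfkb1 was higher with TSLP in mature cells by 0.73 ± 0.175 log2 units (adjusted p = 0.00748), and without IL-3 mature 3 the adjusted p was 0.0523. The difference was 0.65 (adjusted p = 0.0112) without TSLP mature 1. In immature cells the difference was 0.48 ± 0.175 (adjusted p = 0.0798). The stages differed by -0.05 ± 0.18 with IL-3 and by 0.21 ± 0.17 with TSLP, neither past the threshold (adjusted p of 0.85 and 0.415).

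Nfkb2 (chr19:46304320-46312385, plus strand) encodes p100, which restrains RelB and is cut to the p52 subunit in the alternative pathway. With IL-3 its levels were 6.79, 6.29 and 8.94 CPM in immature and 14.96, 21.5 and 13.5 CPM in mature libraries. With TSLP they were 12.9, 16.0 and 19.4 CPM in immature and 25.1, 25.0 and 27.7 CPM in mature libraries. Within each cytokine the stages did not overlap, and within each stage the cytokines did not overlap. Nfkb2 was 2.27-fold higher in IL-3 mature than in IL-3 immature cells (log2 1.18 ± 0.26, adjusted p = 0.00145), a call that all 21 alternatives kept. With TSLP the stages differed 1.61-fold (0.69 ± 0.22, adjusted p = 0.0339), but 14 of 21 alternatives took the adjusted p above 0.05, including the fit without Rn45s (0.60, adjusted p = 0.0577), DESeq2 (0.65, adjusted p = 0.0547) and the fit without TSLP mature 1 (0.62, adjusted p = 0.0535). In immature cells Nfkb2 was 2.18-fold higher with TSLP (1.125 ± 0.26, adjusted p = 0.0096), a call lost without IL-3 immature 2 (0.97, adjusted p = 0.0623) or TSLP immature 3 (0.95, adjusted p = 0.0629). In mature cells the difference of 0.63 ± 0.23 had an adjusted p of 0.0531, and 0.04 without IL-3 mature 2. Exons of Psd and of a second gene on the other strand cover 18.1% of the Nfkb2 exons in GENCODE vM21, but Psd itself did not pass 1.17 CPM in any library.

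Relb (chr7:19606217-19629438, minus strand) encodes RelB, the partner of p52 in the alternative pathway, and was scarce. It had 16 counts in all over the 3 IL-3 immature libraries (0.485 to 2.57 CPM) and 40 over the IL-3 mature ones (4.37 to 6.41 CPM). TSLP immature libraries ranged from 1.56 to 6.13 CPM and TSLP mature ones from 4.54 to 6.75 CPM. The IL-3 stages did not overlap and the TSLP stages did. Its difference between the IL-3 stages was 1.47 ± 0.52 (adjusted p = 0.0296) and was lost when any of 5 single IL-3 libraries was left out, with adjusted p up to 0.105.

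Rel (chr11:23736847-23770970, minus strand) encodes c-Rel, an activating subunit best known in lymphocytes. In IL-3 cultures it ranged from 7.76 to 10.6 CPM in immature and from 9.97 to 17.1 CPM in mature libraries. In TSLP cultures it ranged from 8.42 to 11.6 CPM in immature and from 8.63 to 14.75 CPM in mature libraries. All 4 ranges overlapped. The 4 differences lay between -0.18 and 0.48 log2 units, with adjusted p from 0.198 to 0.782. Their 95% intervals reached from -0.78 to 1.12 and so include differences of up to about these bounds.

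Nfkbie (chr17:45555703-45563169, plus strand) encodes IκBε, an inhibitor that is itself induced by NF-κB and holds dimers with p65 and c-Rel. With IL-3 its levels were 24.3, 22.3 and 21.9 CPM in immature and 55.6, 62.7 and 62.7 CPM in mature libraries. With TSLP they were 48.7, 68.4 and 65.7 CPM in immature and 109, 95.3 and 106 CPM in mature libraries. The IL-3 immature libraries lay far below and the TSLP mature ones far above the other 6. Nfkbie was 2.65-fold higher in mature than immature cells with IL-3 (log2 1.41 ± 0.18, adjusted p = 9.61e-06) and 1.69-fold higher with TSLP (0.76 ± 0.17, adjusted p = 0.00311). With TSLP it was 2.67-fold higher in immature cells (1.42 ± 0.18, adjusted p = 0.000108) and 1.71-fold higher in mature cells (0.77 ± 0.17, adjusted p = 0.00428). All 4 calls held in each of the 21 alternatives; without TSLP mature 1 the differences between TSLP stages and between mature cells were 0.63 and 0.65 (adjusted p of 0.00745 and 0.0075).

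Nfkbiz (chr16:55811375-55838899, minus strand) encodes IκBζ, a nuclear IκB protein that NF-κB induces and that is needed for a second wave of its targets such as Il6. With IL-3 its levels were 31.5, 54.9 and 57.9 CPM in immature and 117, 117 and 151 CPM in mature libraries. With TSLP they were 94.4, 113 and 160 CPM in immature and 95.5, 241 and 287 CPM in mature libraries, the value of 95.5 belonging to TSLP mature 1. The IL-3 stages did not overlap, and the TSLP stages overlapped through that library alone. Nfkbiz was 2.64-fold higher in IL-3 mature than in IL-3 immature cells (log2 1.40 ± 0.34, adjusted p = 0.00301) and 2.52-fold higher with TSLP in immature cells (1.33 ± 0.34, adjusted p = 0.0169). The second of these lost its call without IL-3 immature 1 (1.102, adjusted p = 0.0898) or without TSLP immature 3 (1.08, adjusted p = 0.089). Between the TSLP stages the difference was 0.76 ± 0.32 (adjusted p = 0.0967) with all libraries and 1.02 (adjusted p = 0.00285) without TSLP mature 1. Between mature cells it was 0.70 ± 0.325 (adjusted p = 0.129) with all libraries and 0.96 (adjusted p = 0.00557) without TSLP mature 1. With no filter on low counts and all 12 libraries, Nfkbiz was called in both (0.71, adjusted p = 0.0115, and 0.70, adjusted p = 0.0138), so these calls turn on the filter as well as on that library, and between the TSLP stages also on the replicate block (0.69, adjusted p = 0.0265).

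Tnfaip3 (chr10:19000910-19015657, minus strand) encodes A20, a ubiquitin-editing enzyme that shuts off signalling upstream of IKK. With IL-3 its levels were 17.0, 17.7 and 22.2 CPM in immature and 42.7, 50.3 and 44.2 CPM in mature libraries. With TSLP they were 26.2, 37.9 and 34.4 CPM in immature and 24.3, 46.0 and 42.5 CPM in mature libraries, with TSLP mature 1 again the low one. The IL-3 mature libraries lay above all immature libraries, and the TSLP stages overlapped. Tnfaip3 was 2.4-fold higher in mature cells with IL-3 (log2 1.26 ± 0.24, adjusted p = 0.00048). With TSLP the stages differed by 0.20 ± 0.23 (adjusted p = 0.576), and by 0.34 without TSLP mature 1 (adjusted p = 0.176). In immature cells Tnfaip3 was 1.72-fold higher with TSLP (0.78 ± 0.24) at an adjusted p of 0.045, a call lost in 12 of 21 alternatives, DESeq2 included (adjusted p = 0.0529), and reaching 0.157 without IL-3 immature 2. In mature cells the cytokines differed by -0.29 ± 0.23 (adjusted p = 0.387), and by -0.13 (adjusted p = 0.636) without TSLP mature 1.

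Nfkbia (chr12:55489410-55492647, minus strand) encodes IκBα, the inhibitor with the fastest feedback. Its levels with IL-3 were 165, 157 and 198 CPM in immature and 265, 254 and 304 CPM in mature libraries. With TSLP they were 149, 150 and 143 CPM in immature and 203, 156 and 159 CPM in mature libraries, 203 being TSLP mature 1. The IL-3 mature libraries were the 3 highest of the 12, and every TSLP immature library was below every IL-3 immature one. Nfkbia was 1.58-fold higher in mature cells with IL-3 (log2 0.66 ± 0.17, adjusted p = 0.00447), while the TSLP stages differed by 0.23 ± 0.17 (adjusted p = 0.356), and by -0.001 without TSLP mature 1. In mature cells it was 1.59-fold lower with TSLP (-0.67 ± 0.17, adjusted p = 0.0106), and without TSLP mature 1 the difference was -0.88 (adjusted p = 0.00104). In immature cells the cytokines differed by -0.23 ± 0.17 (adjusted p = 0.397).

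Nfkbib (chr7:28758251-28767512, minus strand) encodes IκBβ, an inhibitor that responds more slowly. In IL-3 cultures it ranged from 9.22 to 15.2 CPM in immature and from 10.8 to 13.5 CPM in mature libraries. In TSLP cultures it ranged from 14.7 to 19.1 CPM in immature and from 17.3 to 25.6 CPM in mature libraries. All TSLP mature libraries were above all IL-3 mature ones, and the stages overlapped under both cytokines. It was 1.68-fold higher with TSLP in mature cells (log2 0.75 ± 0.24, adjusted p = 0.0352). This call was lost in 12 of 21 alternatives, with adjusted p up to 0.156 (without IL-3 mature 3), and without TSLP mature 1 the difference was 0.505 (adjusted p = 0.143). Exons of Sirt2 and Ccer2 on the other strand cover 16.4% of its exons, Sirt2 stood at 111 to 343 CPM, and whether counting used strand is not given in the sources used here, so some Nfkbib counts may belong to Sirt2.

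TSLP immature cells and IL-3 mature cells were then compared, a contrast added after the values of these groups had been seen. Of the 10 genes 2 were called, against 40.2% of all genes. Nfkbie stood at 60.9 ± 10.7 (SD, n = 3) CPM in the former and 60.3 ± 4.1 in the latter, a difference of 0.01 log2 units with a 95% interval of -0.345 to 0.37. For Rela the difference was 0.02 (-0.415 to 0.46), for Nfkb2 -0.06 (-0.56 to 0.44) and for Nfkbiz -0.07 (-0.76 to 0.625). The means of these 4 genes were close in the 2 groups, but the intervals include differences of up to about their bounds in each direction. Nfkbia was lower in TSLP immature cells by 0.90 ± 0.17 log2 units (147.5 ± 3.64 against 274 ± 26.2 CPM, adjusted p = 0.000611), and Nfkb1 was higher by 0.53 ± 0.175 (adjusted p = 0.0244), a call lost in 4 removals of 1 library, with adjusted p up to 0.0966 (without IL-3 mature 1). Tnfaip3 differed by -0.48 ± 0.23 (adjusted p = 0.107), and by -0.48 at an adjusted p of 0.0309 without TSLP mature 1, a library of neither group that enters only through the scaling, the gene filter and the shared estimate of spread.

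Whether maturation changed a gene differently with TSLP than with IL-3 was tested as an interaction. None of the 10 genes was called, and 4.19% of all genes were. At an unadjusted p under 0.05 there were 2 members (Tnfaip3 and Nfkbie), while 18.5% of all genes were under it, and DESeq2 called 0 members. Tnfaip3 had the lowest p: its maturation difference with TSLP minus that with IL-3 was -1.07 ± 0.33 log2 units (adjusted p = 0.0854). The value was -0.87 (adjusted p = 0.0562) without TSLP mature 1 and -1.26 (adjusted p = 0.0468) without TSLP mature 2. With the replicate number as a block it was -1.11 (adjusted p = 0.0331). For Nfkbie the value was -0.64 ± 0.24 (adjusted p = 0.159). The signs of the other 8 were mixed, from -0.88 ± 0.69 for Relb to 0.25 ± 0.25 for Nfkb1. A gene called with IL-3 and not with TSLP is therefore not shown to differ between the cytokines.

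The inhibitors were present in different proportions in the 4 groups. The ratio of Nfkbia to Nfkbie counts within a library, which does not depend on scaling, was 6.82, 7.04 and 9.05 in immature and 4.77, 4.06 and 4.85 in mature cells of the IL-3 cultures. It was 3.06, 2.19 and 2.18 in TSLP immature cells and 1.87, 1.64 and 1.5 in TSLP mature cells. No 2 of the 4 groups overlapped, and TSLP mature 1 lay near its group. The ratio of Nfkbiz to Nfkbia counts ran the other way, from 0.191, 0.350 and 0.293 in immature to 0.441, 0.460 and 0.496 in mature cells of the IL-3 cultures and to 0.633, 0.753 and 1.11 in TSLP immature cells. In TSLP mature cells it was 0.470, 1.54 and 1.81, the first being TSLP mature 1. Nfkbia is the upper term of the first ratio and the lower term of the second, so their opposite courses are not independent of each other. These ratios show unequal change of the genes in each pair and were not tested.

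**Figure D3:**
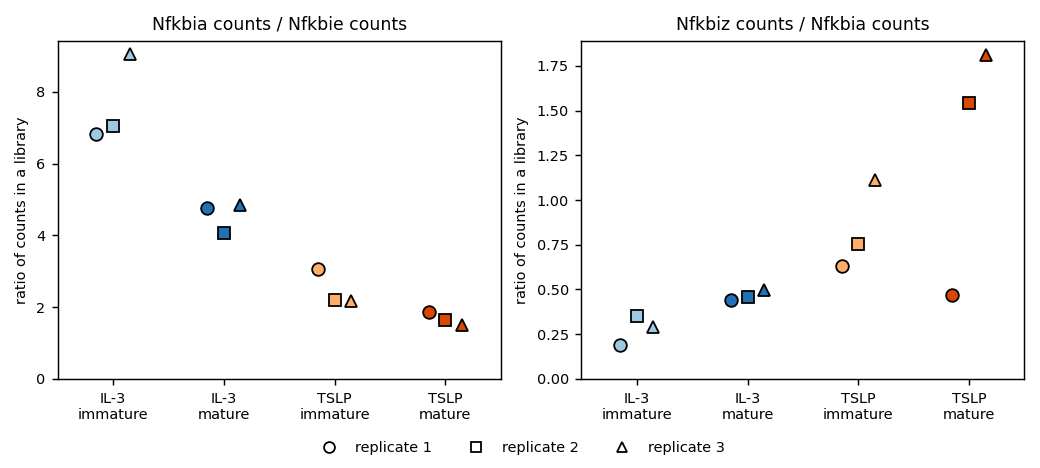
Ratio of Nfkbia to Nfkbie counts (left) and of Nfkbiz to Nfkbia counts (right) in each library (vertical axes, from 0, no unit), by group and replicate number. The left ratio is 6.82 to 9.05 in IL-3 immature and 1.5 to 1.87 in TSLP mature libraries; on the right TSLP mature 1 (circle) lies at 0.470, under the other libraries of its group.

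Compared per kilobase of the longest coding transcript in GENCODE vM21, Nfkbia had the highest level of the 10 genes in every group, at 110 ± 13.7 (SD, n = 3), 174 ± 16.6, 93.5 ± 2.3 and 109 ± 16.7 CPM per kb. Nfkb1, Nfkbiz and Nfkbie held the next places in all 4 groups. In IL-3 immature cells Nfkb1, at 27.9 CPM per kb (24.8 to 33.5), lay above Nfkbiz at 11.7 (7.66 to 14.1) and Nfkbie at 9.36 (8.97 to 9.96), and the ranges of the last pair overlapped. In TSLP mature cells Nfkbiz at 50.5 (23.2 to 69.8), Nfkb1 at 44.9 (42.9 to 47.1) and Nfkbie at 42.3 (39.1 to 44.6) overlapped and have no firm order. Rel and Relb were lowest in each group, Rel between 1.17 and 1.68 and Relb between 0.761 and 2.54 CPM per kb, and their ranges overlapped except in TSLP mature cells, where Relb (2.05 to 3.05) was above Rel (1.16 to 1.98). How evenly reads cover a transcript is not known from counts, which limits this order.

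Other parts of the pathway were described by lists of genes. Of 14 tested genes for further negative regulators, 4 were higher in mature cells with IL-3 and 2 with TSLP, none lower, beside 24.1% and 12.9% of all genes that were higher; these shares are near each other. Without TSLP mature 1 it was 4 higher and 1 lower with IL-3, and 2 and 1 with TSLP. Zc3h12a, an RNase that degrades inflammatory transcripts, was at 6.09 ± 3.45 (SD, n = 3) CPM in immature and 22.7 ± 1.06 in mature cells of the IL-3 cultures (log2 1.82 ± 0.35, adjusted p = 0.00048). Rnf11, a partner of A20, rose with IL-3 maturation from 24.5 ± 1.22 to 72.6 ± 7.92 CPM (1.57 ± 0.18, adjusted p = 2.42e-06). Tnip1, a ubiquitin-binding protein that works with A20, was higher in TSLP mature than TSLP immature cells by 0.74 ± 0.18 (adjusted p = 0.00754), a call lost without TSLP immature 1 or 3 (adjusted p of 0.0608 and 0.0618). Between mature cells 2 of the 14 were higher with TSLP and 3 lower: Pdlim2, which promotes the degradation of nuclear p65, was at 140 ± 35.1 against 70.0 ± 2.79 CPM (1.00 ± 0.19, adjusted p = 0.0023, or 0.71 without TSLP mature 1), and Cyld, a deubiquitinase, at 146 ± 37.6 against 272 ± 58.1 CPM (-0.90 ± 0.23, adjusted p = 0.0116). Pdlim2 was also higher with TSLP in immature cells (0.97 ± 0.20, adjusted p = 0.00442) and in TSLP mature than TSLP immature cells (0.68 ± 0.19, adjusted p = 0.0148), the last falling to 0.385 (adjusted p = 0.0779) without TSLP mature 1. Between immature cells 3 were higher with TSLP and none lower, Zc3h12a among them (1.18 ± 0.36, adjusted p = 0.0402). That call was lost in 9 of 21 alternatives, and the value was 0.73 (adjusted p = 0.211) without TSLP immature 2. Of all genes 12.4% were higher and 11.9% lower with TSLP between mature cells, and 7.38% were higher between immature cells.

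Of the 11 genes for the IKK complex and the kinases that activate it, 5 were higher and 1 lower in mature cells with IL-3, and 1 and 1 with TSLP, counts near the 46.2% and 25.1% called of all genes. Without TSLP mature 1, where 10 of them could be tested, 2 were higher and 1 lower with TSLP. Tab2, an adaptor of the kinase TAK1, was at 103.5 ± 7.4 (SD, n = 3) CPM in immature and 232 ± 3.78 in mature cells of the IL-3 cultures (1.16 ± 0.16, adjusted p = 2.58e-05), and was lower in TSLP mature cells than in IL-3 mature cells by 0.57 ± 0.16 (157 ± 21.8 CPM, adjusted p = 0.0183; 0.0778 with no filter on low counts). Tbk1, a kinase related to the IKKs, was higher in IL-3 mature than IL-3 immature cells (0.93 ± 0.20, adjusted p = 0.00115). Tab2 was the only one of the 11 called between mature cells. Of all genes 24.3% were called there and 13.3% between immature cells. Chuk, which encodes IKKα, was the only one called between immature cells, higher with TSLP (0.68 ± 0.21, adjusted p = 0.0439), and lost its call in 14 of 21 alternatives, with adjusted p up to 0.17 (without TSLP immature 3). Of 22 adaptor genes, 8 were higher and 1 lower in mature cells with IL-3, and 6 and 1 with TSLP, beside 46.2% and 25.1% called of all genes. The TSLP stages gave 5 higher and 3 lower without TSLP mature 1. Irak2, a kinase-like adaptor of Toll-like and IL-1 family receptors, was at 6.755 ± 2.1, 23.7 ± 1.94, 17.1 ± 1.84 and 33.4 ± 5.1 CPM (SD, n = 3) in the 4 groups. It was higher in mature cells by 1.75 ± 0.24 with IL-3 (adjusted p = 2.16e-05) and by 0.96 ± 0.21 with TSLP (adjusted p = 0.00311), and higher with TSLP in immature cells by 1.29 ± 0.25 (adjusted p = 0.00309). Birc3, a ubiquitin ligase of TNF receptor complexes, rose with IL-3 maturation (1.06 ± 0.17, adjusted p = 8.13e-05), and Rnf31, the catalytic part of the linear ubiquitin ligase, with TSLP maturation (0.80 ± 0.19, adjusted p = 0.00551; 0.051 without TSLP immature 2). Between mature cells 3 adaptors were higher with TSLP and 1 lower, and Rbck1, a partner of Rnf31, was higher by 0.88 ± 0.17 (adjusted p = 0.00216). Traf2, an adaptor of TNF receptors, was higher there by 0.71 ± 0.23 (adjusted p = 0.0353), and by 0.31 without TSLP mature 1 (adjusted p = 0.247). Between immature cells 4 adaptors were higher with TSLP and none lower, and Card9, an adaptor of C-type lectin receptors, was higher by 0.86 ± 0.20 (adjusted p = 0.00915), with an adjusted p of 0.0556 without TSLP immature 3. Over all genes the shares were 12.4% higher and 11.9% lower with TSLP between mature cells, and 7.38% higher between immature cells.

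Of 26 known NF-κB target genes 16 could be tested. With IL-3, 11 were higher and 1 lower in mature cells, with a median of 1.96 log2 units against 0.065 over all genes. With TSLP, 7 were higher and 0 lower, with a median of 0.60 against 0.032. Between immature cells 7 were higher with TSLP and 0 lower (median 0.65 against 0.04), and between mature cells 2 were higher and 3 lower (median 0.085 against 0.089). Of all genes 46.2%, 25.1%, 13.3% and 24.3% were called in these comparisons, in this order. The count between mature cells is not far from that share. Without TSLP mature 1 the median between the TSLP stages was 0.43 with 7 higher and 0 lower, and that between mature cells -0.11 with 1 higher and 3 lower. The chemokine gene Ccl4 stood at 105 ± 18.2 (SD, n = 3), 946.5 ± 31.5, 377 ± 60.4 and 1130 ± 116 CPM in the 4 groups. It rose with maturation by 3.17 ± 0.20 with IL-3 (adjusted p = 4.6e-09) and by 1.58 ± 0.19 with TSLP (adjusted p = 1.41e-05). Plaur, the urokinase receptor gene, rose by 3.11 ± 0.26 with IL-3 (adjusted p = 1.09e-07) and by 1.77 ± 0.23 with TSLP (adjusted p = 3.65e-05). Il6, a cytokine gene, was at 350 ± 95.6 CPM in TSLP immature and 80.3 ± 6.26 in IL-3 immature cells (2.13 ± 0.23, adjusted p = 2.22e-05), and Ptgs2, which encodes cyclooxygenase-2, was higher in the former by 1.93 ± 0.35 (adjusted p = 0.00214). Cxcl2, a neutrophil chemokine gene, was at 8.84 ± 2.71 CPM in TSLP mature and 34.2 ± 13.4 in IL-3 mature cells (-1.93 ± 0.31, adjusted p = 0.000781), whereas the adhesion molecule gene Icam1 was higher in the TSLP mature cells by 1.31 ± 0.36 (adjusted p = 0.015), a call lost without IL-3 mature 2 or 3 (adjusted p of 0.0604 and 0.0579). In the interaction, 5 of the 16 targets were called (Il6, Ccl4, Cxcl2, Ptgs2 and Plaur), all with a smaller maturation change under TSLP, beside 4.19% of all genes. Without TSLP mature 1, 7 were called, and the calls over all genes rose from 455 to 723.

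Genes of other lists changed in the same comparisons. Of 12 tested immediate early genes, which also answer to handling of cells, 10 were higher and 0 lower in IL-3 mature than IL-3 immature cells, and 9 were higher and 0 lower with TSLP in immature cells. With TSLP maturation 6 were higher and 0 lower, and with TSLP between mature cells 5 and 0. Of all genes 24.1%, 7.38%, 12.9% and 12.4% were called higher in these comparisons, in this order. The 15 genes of the list together (heat shock genes included) summed to 2236 to 3242, 7236 to 9588, 4642 to 6882 and 8729 to 12180 CPM in the libraries of the 4 groups, the lowest of the last being TSLP mature 1. Of 10 tested markers of monocytes, macrophages and dendritic cells, 7 were higher in mature cells with IL-3 and 9 with TSLP, beside 24.1% and 12.9% of all genes. The 13 in the table summed to 49.99 to 100.4, 313 to 470, 189 to 223 and 653 to 1537 CPM. Cd74 and H2-Ab1, of antigen presentation, were at 683 and 222 CPM in TSLP mature 1 and at 212 to 224 and 69.5 to 71.5 CPM in the other TSLP mature libraries. Not all of the list was higher in TSLP mature 1: Adgre1 was at 172.9 CPM there and at 214.5 and 198.8 CPM in the other TSLP mature libraries. Neutrophil markers summed to 737 to 815 CPM in immature and 282 to 405 in mature libraries with IL-3 and to 319 to 415 CPM in TSLP immature libraries. Most of the immature sums was Mpo, an enzyme of granulocyte precursors, at 714 ± 56.4 (SD, n = 3) CPM in IL-3 immature cells and 1.46 ± 1.24 in IL-3 mature ones. Of the 8 tested neutrophil markers Mpo was lower in IL-3 mature cells and Mmp8 and Retnlg were higher, with a median of 1.83 log2 units; S100a9 was at 32.0 ± 12.1 and 111 ± 18.6 CPM and was not called. B lineage markers summed to at most 8.25 CPM with IL-3 and 37.1 to 42.6 CPM in TSLP immature libraries. Of the 9 basophil and sort markers, 4 were called higher and 4 lower in IL-3 mature cells, beside 46.2% of all genes called. The 9 summed to 37310 to 40910, 9614 to 11980, 26400 to 29450 and 7517 to 11350 CPM. The part of these genes and cells in the values of the NF-κB genes was not tested.

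**Figure D4:**
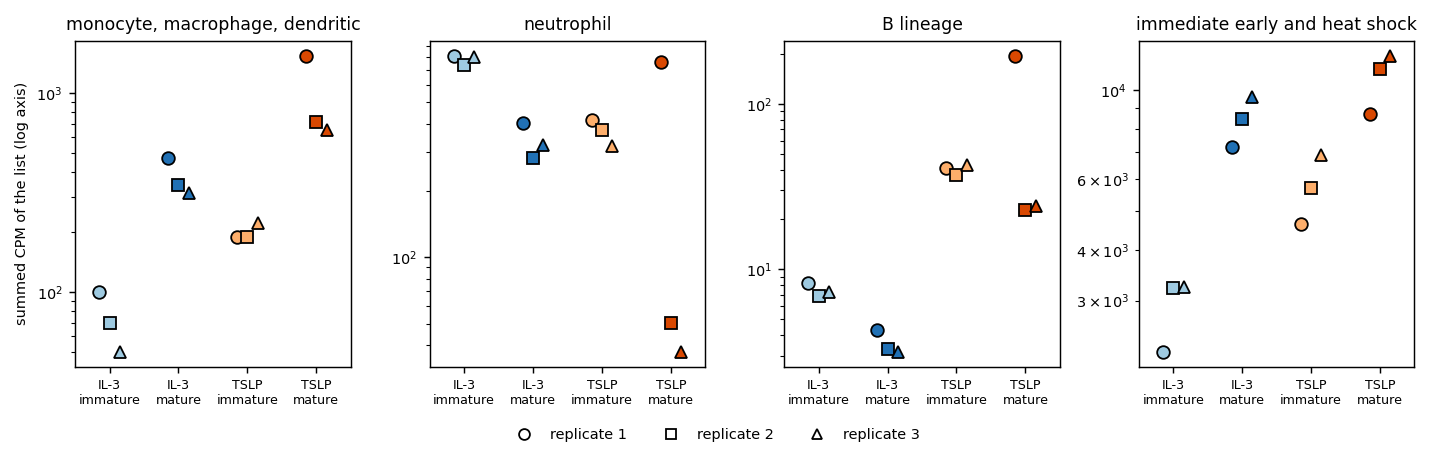
Summed CPM (log axes) of 4 gene lists in each library, by group and replicate number: markers of monocytes, macrophages and dendritic cells, of neutrophils and of the B lineage, and immediate early with heat shock genes. TSLP mature 1 (circle) lies above the rest of its group in the first 3 lists, at 1537, 760 and 196 CPM, and below it in the last, at 8729 CPM.

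The widest range of group means (log2 CPM, prior count 2) was that of Nfkbie (2.14), followed by Nfkbiz (2) and Nfkb2 (1.74), and that of Rel was the narrowest (0.46). Among 7549 genes of at least 10 CPM on average, those most like Nfkbie over the 12 libraries were Fbxo31 (Pearson r = 0.985), Pim2 (0.985) and H2-K1 (0.984). Pim2, a kinase gene, stood at 7.56, 36.7, 49.1 and 101.2 CPM on average in the 4 groups. Most like Nfkbiz were P2ry1 (0.971), Btg2 (0.970), an immediate early gene, and Tbc1d8 (0.970). Most like Nfkb2 were Gadd45g (0.977), Ier5 (0.973) and Myo1f (0.971). The 12 points fall into 4 groups and share their libraries' depth and scaling, so these correlations describe the group pattern and carry no test.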

How the data were processed

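RNA of sorted cells was extracted (NucleoSpin RNA Plus XS), captured on oligo(dT) beads, amplified by the TAS-Seq workflow and sequenced on an Ion Proton. The authors trimmed reads with Cutadapt, aligned them with Bowtie2 to GRCm38 reference transcripts and deposited raw counts per gene; the labels name both GRCm39 and mm10 as builds. Handling of reads that fit several genes, strand and molecular identifiers is not given in the sources used here. One unnamed row, equal to the column total (50% of each column), was left out. The labels do not say how replicates were made; the study calls them cultures, and p-values measure the spread between these libraries. The members and lists were chosen with earlier results of these data known.

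Genes were filtered with filterByExpr (minimum count 10, minimum total 15), scaled by TMM and tested in 1 edgeR 4.0.16 quasi-likelihood fit over the 4 groups (R 4.3.3), with Benjamini-Hochberg adjusted p under 0.05 as the threshold. SE is the log2 fold change over the square root of F, and intervals are 95%. All 10 members are named, and in each other list and comparison at most 2 called genes with the largest change and a mean of at least 10 CPM. Mcpt8, Kit, Itga2, Fcer1a, Prss34, Clec12a, Cd9, Mpo, S100a9, Mmp8, Retnlg, Cd74, H2-Ab1 and Adgre1 were named after their values were seen. Gene positions and lengths came from GENCODE vM21 (GRCm38) and promoters from RefSeq. On simulated counts for the IL-3 stages (10861 genes, 200 changed), 48% of 2-fold and 89% of 4-fold changes were recovered. The data gave 5020 calls between these stages, and the adjusted p depends on how many genes change. The recovered shares therefore do not describe recovery in the real comparison. Replicates of a group differed by more than counting noise (chi-square of at least 2.17 per degree of freedom). Intervals of counts cover no more than counting and library spread. Alternatives were DESeq2 1.42.0 and its size factors, TMM on uncalled genes or with another reference library, ribosomal genes left out, 2 other filters, the replicate number as a block and each library left out. The TMM reference library and the 3 ribosomal genes were added as choices after seeing the data.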

Additional observations from a re-analysis of the deposited data

Results flagged for a closer look

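Among the genes named from the pathway lists, 6 changed differently with maturation under the 2 cytokines, by the interaction term of the fit. Of all genes 4.19% were called in it. The genes were named for the largest called changes in each comparison, the interaction included, so the 6 were partly picked by these values. Rnf11, a partner of A20, rose from 24.5 ± 1.22 (SD, n = 3) to 72.6 ± 7.92 CPM with IL-3 and stood at 37.8 ± 6.16 and 51.6 ± 2.82 CPM with TSLP, and the second difference minus the first was -1.12 ± 0.24 (SE) log2 units (edgeR adjusted p = 0.0146). Cxcl2, a chemokine gene, rose from 5.37 ± 1.75 to 34.2 ± 13.4 CPM with IL-3 and stood at 8.999 ± 1.87 and 8.84 ± 2.71 CPM with TSLP, a value of -2.64 ± 0.49 (adjusted p = 0.00597). Ptgs2, which encodes cyclooxygenase-2, rose from 13.3 ± 1.5 to 85.5 ± 2.41 CPM with IL-3 and stood at 51.1 ± 13.1 and 91.5 ± 46.1 CPM with TSLP, a value of -1.83 ± 0.46 (adjusted p = 0.0337). For 3 more targets the values were -1.58 ± 0.265 for Ccl4 (adjusted p = 0.003), -1.525 ± 0.31 for Il6 (adjusted p = 0.0101) and -1.33 ± 0.36 for Plaur (adjusted p = 0.0458), each with the smaller rise under TSLP. Rnf11, Cxcl2, Ccl4 and Il6 kept their calls in all 21 alternatives. Plaur lost its call in 11, with adjusted p up to 0.123 (without IL-3 immature 3), and was called without TSLP mature 1 (-1.52, adjusted p = 0.0123). Ptgs2 lost its call in 8, each the removal of 1 library, with adjusted p up to 0.0745, and without TSLP mature 1 the value was -1.51 (adjusted p = 0.0027).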

How the results depend on the processing

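Of the 60 differences of the 10 members (6 contrasts, among them TSLP immature against IL-3 mature, added after values were seen), 21 were called, 10 of them in each of the 21 alternatives, and none of the 21 turned its direction. The share called of all genes was 46.2% between the IL-3 stages, 25.1% between the TSLP stages and 24.3% between mature cells. It was 13.3% between immature cells, 4.19% in the interaction and 40.2% between TSLP immature and IL-3 mature cells. Leaving out 1 library at a time gave 5 to 7 members called between the IL-3 stages (7 with all), 1 to 3 between the TSLP stages (3), 2 to 5 between mature cells (5), 1 to 5 between immature cells (4), 0 to 1 in the interaction (0) and 1 to 3 between TSLP immature and IL-3 mature cells (2). Over all genes the same removals gave 4193 to 5676 calls between the IL-3 stages (5020), 1774 to 3456 between the TSLP stages (2731) and 1658 to 2968 between mature cells (2634). They gave 588 to 2243 between immature cells (1443), 240 to 723 in the interaction (455) and 3616 to 5156 between TSLP immature and IL-3 mature cells (4366). Directions of uncalled members near 0 turned in some removals, with ranges of -0.235 to 0.071 (Nfkb1) and -0.026 to 0.388 (Nfkbib) between the IL-3 stages, -0.202 to 0.192 (Rel), -0.001 to 0.237 (Nfkbia) and -0.044 to 0.344 (Tnfaip3) between the TSLP stages, -0.501 to 0.034 (Rel) and -0.11 to 0.338 (Relb) between mature cells, -0.101 to 0.163 (Rela) and -0.097 to 0.326 (Nfkbib) in the interaction, and -0.181 to 0.18 (Nfkb2), -0.086 to 0.168 (Rela), -0.078 to 0.155 (Nfkbie) and -0.269 to 0.087 (Nfkbiz) between TSLP immature and IL-3 mature cells. With Rn45s, Rn18s and Rn28s1 left out the interaction of Rela was -0.003 and the difference of Nfkbie between TSLP immature and IL-3 mature cells -0.007, and Nfkb2 in that contrast was 0.002 with no filter and 0.01 with the filter of 10 CPM. The replicate numbers are shared by the groups but were not taken as pairs in the main fit. Same-numbered libraries correlated (deviations from group means) at -0.077 to 0.388, which does not settle whether they are pairs. Every library correlated best with its own number only between the immature groups (6 of 6; 5 of 6 between the TSLP stages, 3 of 6 in the other 2 comparisons). With the replicate number as a block, 1893 genes were called between immature cells (1443 without it) and 3067 between the TSLP stages (2731). In that fit 1 member was called in the interaction, Tnfaip3 (-1.11, adjusted p = 0.0331), and Nfkbiz was called between the TSLP stages (0.69, adjusted p = 0.0265). TMM took TSLP mature 1 as its reference library; with IL-3 mature 1 instead, the median log2 fold change of all genes moved from 0.065 to 0.019 between the IL-3 stages and from 0.089 to 0.026 between mature cells. With the 3 ribosomal genes left out, 1019 genes were higher and 1491 lower with TSLP in mature cells, against 1345 and 1289. Relb, with 1 to 25 counts a library, is limited most by depth, and the filter of 10 CPM left it out.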

Other observations

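In every library the count of Rn45s, the ribosomal precursor RNA, was 100.1% to 101.8% of the counts of Rn18s and Rn28s1 together. Rn45s alone took 7.43% to 12.5% of the counts of IL-3 libraries and 8.68% to 20.2% of those of TSLP libraries, the lowest TSLP share being that of TSLP mature 1.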
